A study of Mus musculus with 17 samples.

Results

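Nuclear receptor genes encode transcription factors that are switched by small fat-soluble ligands, and 41 of them were followed here by their symbols on arrays of sorted intestinal cells. A member was measured when at least 1 of its probes lay well above background on 4 or more arrays, and the probe with the highest mean stood for the gene. This left 40 of the 41 genes, among 27771 genes measured in all. The member without such a probe was Pgr, the progesterone receptor, whose 3 probes passed background on at most 2 arrays.

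The series compared sorted intestinal stem cells of mice with the genotype LGR5-GFPki, in which green fluorescence reports Lgr5, the R-spondin receptor that marks crypt base stem cells. The groups were LGR5hi cells after 12 Gy of gamma-irradiation (n = 4 arrays), LGR5hi cells without irradiation (n = 4), LGR5lo cells after 12 Gy (n = 4) and LGR5lo cells without irradiation (n = 5). Cells were sorted 3 hours after exposure, all groups carried the same reporter genotype, and each group held 2 female arrays with the rest male. The labels give no age. Since each group held both sexes, its arrays did not all come from the same animal. The labels do not say whether arrays of the same sex came from separate animals. The p-values therefore measure the spread between these samples, part of which may be technical.

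Most receptors of this family bind DNA as dimers at repeats of a short half-site, many of them together with a retinoid X receptor. A bound ligand swaps corepressors for coactivators, so the same receptor can silence or switch on its targets. In the intestine the family is known for sensing vitamin D, retinoids, bile acids, fatty acids, sterols and hormones, while HNF4 receptors and LRH-1 act as epithelial identity factors with little dependence on a hormone.

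The 250 bases upstream of the annotated start are shown for Rarg, Vdr and Esr1, because these 3 genes changed after irradiation in both sorts with no overlap of the compared arrays. The sequences are from RefSeq on build GRCm38.p6, 5′ to 3′ on the gene's strand. They lie at chr15:102257523-102257772 (minus strand) for Rarg, chr15:97908297-97908546 (minus strand) for Vdr and chr10:4611739-4611988 (plus strand) for Esr1. Capitals mark the half-site AGGTCA, the GC box GGGCGG (Sp family sites) or the p53 half-site, each searched on both strands.
Rarg: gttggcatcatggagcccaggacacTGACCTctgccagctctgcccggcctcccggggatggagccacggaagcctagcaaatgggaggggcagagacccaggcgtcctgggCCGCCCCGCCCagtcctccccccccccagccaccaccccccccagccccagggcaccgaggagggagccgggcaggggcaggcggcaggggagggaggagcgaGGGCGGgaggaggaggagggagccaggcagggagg
Vdr: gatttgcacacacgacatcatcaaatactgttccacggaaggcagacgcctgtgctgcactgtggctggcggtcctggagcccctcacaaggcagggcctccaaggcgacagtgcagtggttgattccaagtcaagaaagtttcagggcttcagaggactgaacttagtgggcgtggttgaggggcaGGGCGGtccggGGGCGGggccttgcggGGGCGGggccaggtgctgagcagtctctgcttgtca
Esr1: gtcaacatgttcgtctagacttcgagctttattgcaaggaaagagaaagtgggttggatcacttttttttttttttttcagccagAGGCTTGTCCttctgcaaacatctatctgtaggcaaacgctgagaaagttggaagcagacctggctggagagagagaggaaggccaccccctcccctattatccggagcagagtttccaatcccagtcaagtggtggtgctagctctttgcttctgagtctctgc
The Rarg window held 1 half-site, near its 5′ end, and 3 GC boxes, 2 of which overlap in one capital run. The Vdr window held 3 GC boxes, and the Esr1 window held 1 p53 half-site. RefSeq lists another window for Rarg and another for Esr1, and neither held any of these motifs. Of the 41 members, 37 matched the promoter table, with 58 windows of these 250 bases. The half-site stood in 17.2% of these windows against 14.0% of all 32851 windows of the same length, and the GC box in 43.1% against 32.7%. The p53 half-site stood in 1.72% of member windows against 7.13% of all, and the E-box CACGTG in 8.62% against 6.02%. No member window held the estrogen-type palindrome, an inverted pair of half-sites, which 0.0639% of all windows held. These matches describe letters only.

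The labels were checked on Lgr5 and on 2 p53 targets. Lgr5 was higher in LGR5hi than in LGR5lo cells by 2.89 log2 after irradiation and by 3.14 without it. Lgr5 itself was lower after irradiation in both sorts. It differed by -1.53 log2 in LGR5hi and -1.27 in LGR5lo cells (limma, adjusted p = 0.00188 and 0.00963). Cdkn1a, the p21 cell-cycle inhibitor, was higher after irradiation by 4.91 log2 in LGR5hi and 2.90 in LGR5lo cells, and Mdm2, the p53 ubiquitin ligase, by 3.15 and 2.95. The 75th percentile of the signal ran from 286 to 627 intensity units over the 16 arrays with a whole scanner file. On 1 array, replicate 2 of the non-irradiated LGR5lo group, 95.1% of spots passed background, whereas 56.6% to 71.8% did so on the other 15. Non-irradiated LGR5hi replicate 1 was rebuilt from the deposited series table, since the copy of its scanner file used here was damaged, and it carries no background flags. Slide 1 carried replicates 1 and 2 of all 4 groups and slide 2 carried replicates 3 and 4, which left replicate 5 of non-irradiated LGR5lo cells alone on slide 3.

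After irradiation most of the receptor genes that changed in LGR5hi cells fell. In LGR5hi cells 13 of 40 members passed the test (limma, adjusted p under 0.05 over all genes), 2 higher and 11 lower, or 32.5% of members, where 13.5% of all genes were called, 6.18% higher and 7.30% lower. The median member differed by -0.31 log2 between irradiated and non-irradiated LGR5hi cells, against -0.02 for all genes. In LGR5lo cells 5 members passed, 2 higher and 3 lower, or 12.5% of members, where 7.49% of all genes were called, 4.48% higher and 3.02% lower. The median member differed by -0.01 log2 there, against -0.13 for all genes. Rarg rose, and Vdr, Esr1 and Nr2f2 fell, in both sorts. In LGR5lo cells the calls of Vdr, Esr1 and Nr2f2 were lost with median centring of the arrays. That of Nr2f2 was also lost in 13 of 17 fits that left out 1 array. The 13 members called in LGR5hi had the same sign on each slide alone, as did the 5 called in LGR5lo. The calls used these same arrays, so neither this nor the slide values given below are an independent check.

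**Figure D1:**
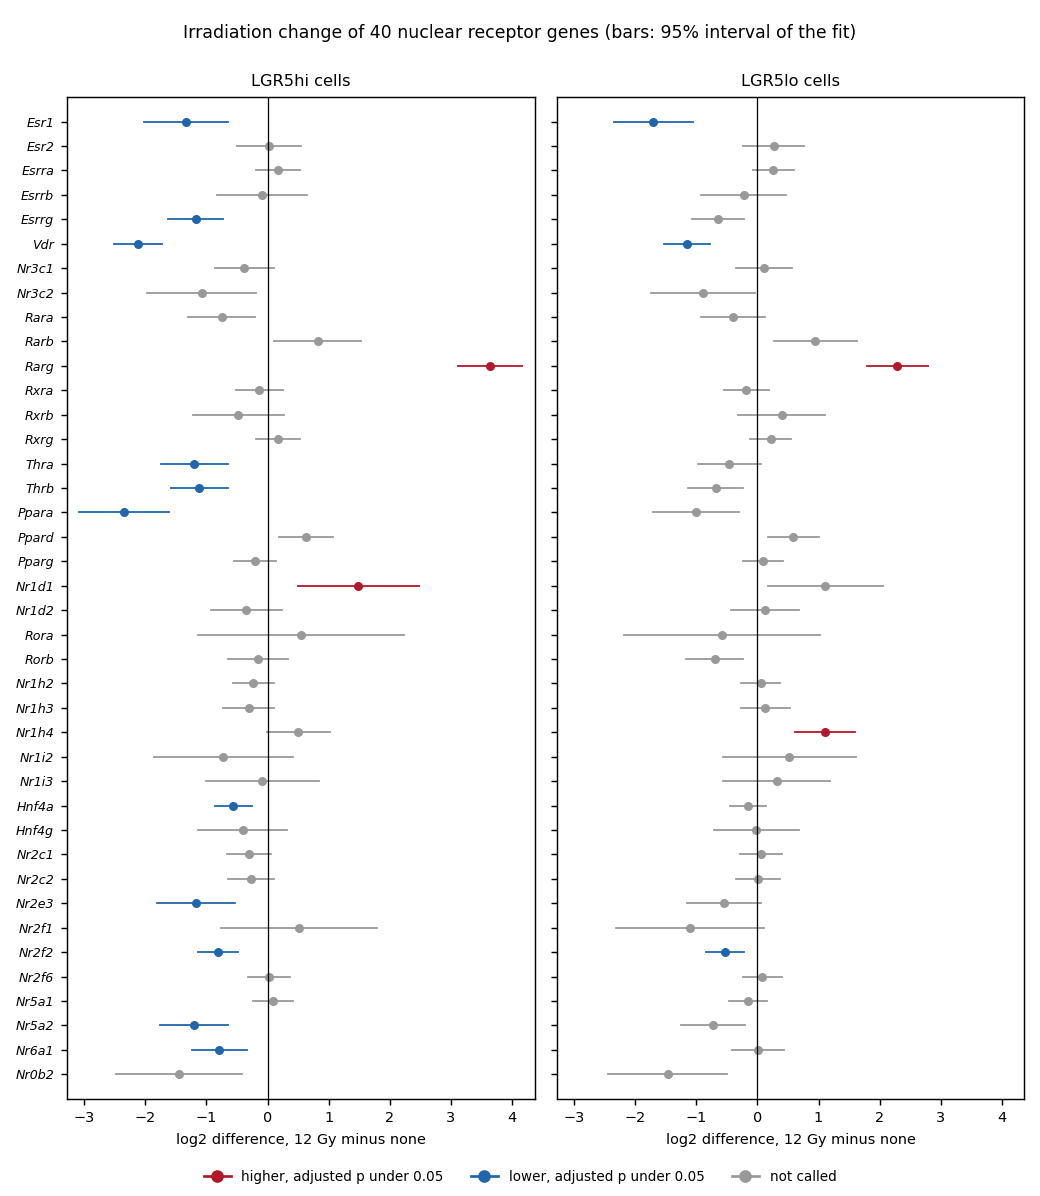
Log2 difference, 12 Gy minus none, of the 40 measured nuclear receptor genes in LGR5hi cells (left) and LGR5lo cells (right), with bars for the 95% interval of the limma fit. Red and blue mark the genes called higher and lower; Rarg stands farthest to the right in both panels, at 3.64 and 2.29, and Ppara farthest to the left in LGR5hi cells, at -2.35.

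Markers of the stem cells moved with these changes. Of 16 LGR5 stem cell markers, 7 were lower after irradiation in LGR5hi cells and 4 in LGR5lo cells, with none higher. Their mean level per array ran from 3.29 to 3.60 log2 on irradiated LGR5hi arrays, against 3.95 to 4.18 on non-irradiated ones. It ran from 1.82 to 2.19 on irradiated LGR5lo arrays, against 2.18 to 2.85 on non-irradiated ones. Fewer cells of a type and less RNA per cell cannot be told apart in such bulk samples, and the part of these markers in the receptor results was not tested.

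Rarg, the gamma retinoic acid receptor, which binds all-trans retinoic acid as a dimer with a retinoid X receptor, showed the largest rise of the family. Its normalised log2 signal (log2 of the processed signal, less that array's 75th percentile) was 1.28, 2.35, 1.68 and 1.44 on irradiated LGR5hi arrays, against -1.79, -2.23, -1.78 and -2.02 on non-irradiated LGR5hi arrays. In LGR5lo cells it was 0.37, 1.48, 0.70 and 0.56 after irradiation, against -1.40, -1.34, -1.67, -1.58 and -1.56 without. Every irradiated array lay above every non-irradiated array of its sort. The rise was 3.64 ± 0.25 log2 (SE) in LGR5hi cells, a 12.5-fold difference (adjusted p = 8.89e-08), and 2.29 ± 0.23 in LGR5lo cells, a 4.88-fold difference (adjusted p = 1.55e-05). It was 3.83 on slide 1 and 3.46 on slide 2 in LGR5hi cells, and 2.29 and 2.25 in LGR5lo cells. The probe lies at chr15:102065371-102065430 (mm9, from the array annotation).

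The other retinoid receptors did not pass the test after irradiation. Rara, the alpha receptor, averaged 2.32 ± 0.45 on irradiated and 3.07 ± 0.41 on non-irradiated LGR5hi arrays (SD, n = 4 each), a difference of -0.75 log2 with adjusted p = 0.0699. With slide as a block its adjusted p was 0.0158. Rarb, the beta receptor and a known retinoic acid target, differed by 0.82 log2 in LGR5hi and 0.95 in LGR5lo cells (adjusted p = 0.138 and 0.0874), but 2 other Rarb probes gave -0.40 and 0.28 in LGR5hi and -0.38 and -0.94 in LGR5lo cells. The retinoid X receptors Rxra, Rxrb and Rxrg, the shared dimer partners, differed by -0.13, -0.48 and 0.18 log2 in LGR5hi cells. In LGR5lo cells these differences were -0.18, 0.40 and 0.22.

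Vdr, the receptor for the active form of vitamin D, fell in both sorts to nearly the same level. Its normalised log2 signal was 3.45, 3.39, 3.47 and 3.63 on irradiated LGR5hi arrays, against 5.75, 5.34, 5.70 and 5.64 on non-irradiated LGR5hi arrays. In LGR5lo cells it was 3.28, 3.37, 3.61 and 3.67 after irradiation, against 5.05, 4.29, 5.02, 4.51 and 4.29 without. The groups overlapped in neither sort. Vdr fell by 2.12 ± 0.19 log2 in LGR5hi cells (4.35-fold lower, adjusted p = 1.67e-06) and by 1.15 ± 0.18 in LGR5lo cells (2.22-fold lower, adjusted p = 0.000725). On slides 1 and 2 alone the differences were -2.12 and -2.12 in LGR5hi cells and -1.34 and -1.12 in LGR5lo cells. The probe lies at chr15:97685136-97685195 (mm9).

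Ppara, a fatty acid sensor that switches on fat oxidation genes, fell in LGR5hi cells. Its signal was -0.76, 0.63, -0.85 and -0.42 on irradiated LGR5hi arrays, against 2.10, 1.81, 2.39 and 1.69 on non-irradiated LGR5hi arrays. In LGR5lo cells it was 0.86, 1.98, 0.77 and 1.22 after irradiation, against 2.71, 1.58, 2.62, 2.15 and 1.99 without. The LGR5hi groups stood clear of each other, while the LGR5lo groups overlapped. The fall was 2.35 ± 0.35 log2 in LGR5hi cells (5.10-fold lower, adjusted p = 0.000211; -2.02 on slide 1 and -2.68 on slide 2). In LGR5lo cells the difference was -1.0 ± 0.33 and did not pass (adjusted p = 0.080), although it passed without non-irradiated LGR5lo replicate 2 (-1.16, adjusted p = 0.0388). The 3 probes of Ppara disagreed in LGR5hi cells, with -2.35 for the one tested at chr15:85632110-85632169 (mm9), and -0.32 and -2.49 for the others.

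The other PPAR genes did not pass after irradiation. Ppard, a broadly expressed fatty acid sensor, averaged 3.96 ± 0.25 on irradiated and 3.33 ± 0.09 on non-irradiated LGR5hi arrays, a difference of 0.63 log2 (adjusted p = 0.0577). In LGR5lo cells the difference was 0.59 (adjusted p = 0.0885). Without non-irradiated LGR5lo replicate 2 the adjusted p of Ppard in LGR5hi cells was 0.0126. Pparg, best known for fat cell differentiation, differed by -0.21 log2 in LGR5hi and 0.09 in LGR5lo cells.

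Esr1, estrogen receptor alpha, fell in both sorts. Its signal was -1.10, -1.43, -0.93 and -0.51 on irradiated LGR5hi arrays, against 0.13, 0.04, 0.54 and 0.64 on non-irradiated LGR5hi arrays. In LGR5lo cells it was -4.74, -4.36, -3.87 and -3.51 after irradiation, against -2.83, -1.48, -2.43, -2.39 and -2.95 without. Neither pair of groups overlapped, and every LGR5lo array lay below every LGR5hi array. The fall was 1.33 ± 0.32 log2 in LGR5hi cells (2.52-fold lower, adjusted p = 0.0101; -1.36 and -1.31 on slides 1 and 2). It was 1.70 ± 0.31 log2 in LGR5lo cells (3.25-fold lower, adjusted p = 0.00242; -2.40 and -1.27 on slides 1 and 2). These values rest on the probe at chr10:5489352-5489411 (mm9), since the 3 other Esr1 probes passed background on 2, 1 and 0 arrays. The tested probe was dim on irradiated LGR5lo arrays, with a mean of -4.12. Over the alternative fits described below, the LGR5lo difference of Esr1 ran from -2.40 to -0.91 log2.

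Esrrg, an estrogen-related orphan receptor tied to oxidative metabolism, fell in LGR5hi cells. Its signal was -0.01, 0.74, 0.22 and 0.37 on irradiated LGR5hi arrays, against 1.65, 1.37, 1.51 and 1.50 on non-irradiated LGR5hi arrays. In LGR5lo cells it was -0.83, 0.20, -0.23 and -0.04 after irradiation, against 0.51, 0.43, 0.63, 0.48 and 0.06 without. The LGR5hi groups were apart, and the LGR5lo groups overlapped. The fall was 1.18 ± 0.21 log2 in LGR5hi cells (2.26-fold lower, adjusted p = 0.0012; -1.14 and -1.21 on slides 1 and 2), and the LGR5lo difference of -0.65 did not pass (adjusted p = 0.0646). Esr2, the beta estrogen receptor, and Esrra and Esrrb, the alpha and beta estrogen-related receptors, differed by -0.09 to 0.17 log2 in LGR5hi and by -0.23 to 0.26 in LGR5lo cells.

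The steroid receptors for cortisol-type and aldosterone-type hormones did not pass. Nr3c1, the glucocorticoid receptor, averaged 3.88 ± 0.32 on irradiated and 4.25 ± 0.21 on non-irradiated LGR5hi arrays (adjusted p = 0.377). Nr3c2, the mineralocorticoid receptor, differed by -1.07 log2 in LGR5hi cells (adjusted p = 0.118) and by -0.89 in LGR5lo cells (adjusted p = 0.187). Without non-irradiated LGR5lo replicate 2, on which Nr3c2 read -0.07 against -2.48 to -1.93 on the rest of its group, the LGR5hi difference had adjusted p = 0.00234.

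Both thyroid hormone receptor genes fell in LGR5hi cells. Thra, the alpha receptor and the main one of the gut epithelium, read 3.57, 3.97, 3.35 and 3.29 on irradiated LGR5hi arrays, against 5.13, 4.81, 4.44 and 4.59 on non-irradiated ones. Thrb, the beta receptor, read -0.88, -0.41, -1.03 and -0.88 on irradiated LGR5hi arrays, against 0.26, 0.21, 0.32 and 0.47 on non-irradiated ones. The LGR5hi groups did not overlap for either gene. Thra fell by 1.20 ± 0.26 log2 (2.29-fold lower, adjusted p = 0.00453; -1.20 on each slide) and Thrb by 1.11 ± 0.22 (2.17-fold lower, adjusted p = 0.00253; -0.88 and -1.35 on slides 1 and 2).

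In LGR5lo cells the thyroid receptor groups overlapped. Thra read 3.42, 3.76, 3.34 and 3.66 on irradiated LGR5lo arrays, against 4.69, 3.54, 4.41, 3.82 and 3.56 on non-irradiated ones. Thrb read -0.84, -0.23, -0.89 and -1.25 on irradiated LGR5lo arrays, against -0.18, -0.59, 0.10, 0.28 and -0.20 on non-irradiated ones. The differences were -0.46 and -0.68 log2 (adjusted p = 0.254 and 0.0602). Without non-irradiated LGR5lo replicate 2, Thrb passed in LGR5lo cells (-0.80, adjusted p = 0.0197). A second kept probe of each gene gave -1.47 (Thra) and -1.09 (Thrb) in LGR5hi cells.

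Nr1d1, the heme-binding clock repressor REV-ERB alpha, rose in LGR5hi cells, but with little margin. It is transcribed from the strand opposite Thra, and the 2 probes tested lie near each other, at chr11:98630526-98631028 for Nr1d1 and chr11:98626356-98626415 for Thra (mm9). Nr1d1 read -0.71, -0.32, -0.79 and -0.31 on irradiated LGR5hi arrays, against -0.80, -3.15, -2.55 and -1.56 on non-irradiated ones. In LGR5lo cells it read -1.26, -0.87, -1.29 and -1.51 after irradiation, against -1.72, -3.52, -2.91, -1.64 and -1.91 without. The groups did not overlap in either sort, but in LGR5hi cells only narrowly, at -0.79 against -0.80. The rise was 1.48 ± 0.47 log2 in LGR5hi cells (2.79-fold higher, adjusted p = 0.0458; 1.46 and 1.50 on slides 1 and 2) and the difference in LGR5lo cells was 1.11 (adjusted p = 0.145). The LGR5hi call was lost in 12 of the 17 fits that left out 1 array, with the highest p, 0.157, without non-irradiated LGR5hi replicate 2, and with slide as a block it had adjusted p = 0.0595.

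Other receptors of the clock and ROR group did not pass after irradiation. Nr1d2, REV-ERB beta, differed by -0.35 log2 in LGR5hi and 0.12 in LGR5lo cells. Rora and Rorb, which activate at the elements that REV-ERB receptors repress, differed by 0.55 and -0.16 log2 in LGR5hi cells and by -0.59 and -0.70 in LGR5lo cells. A second kept Rorb probe gave 0.466 in LGR5hi and -0.325 in LGR5lo cells.

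**Figure D2:**
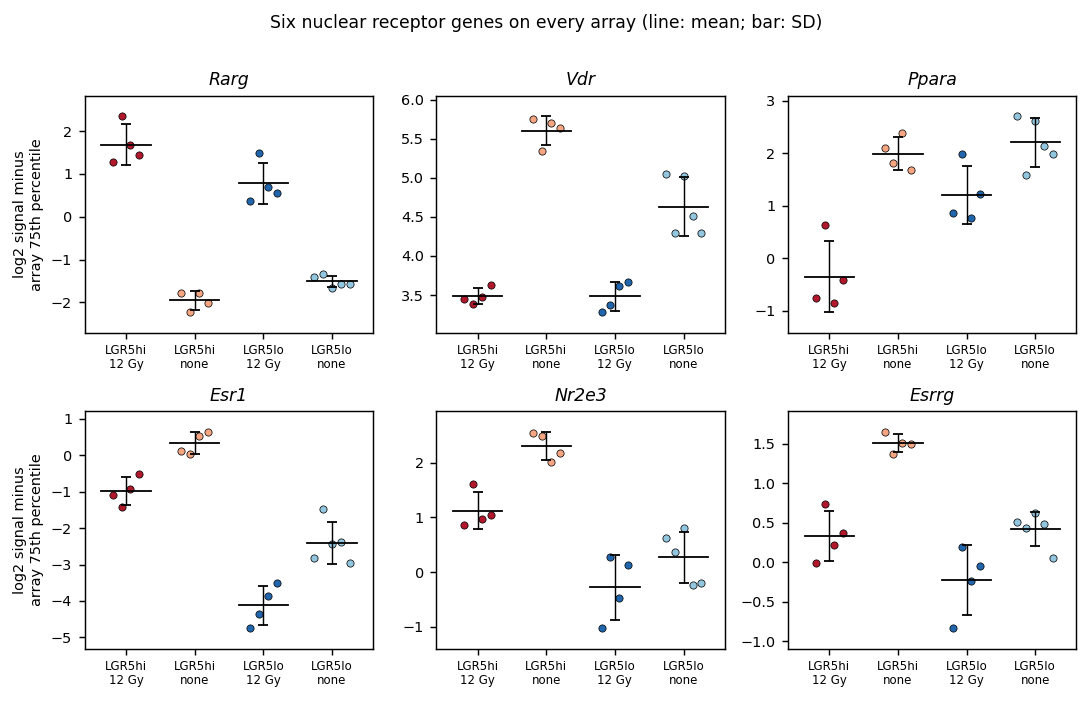
Normalised log2 signal (y axis, relative to the 75th percentile of each array) of Rarg, Vdr, Ppara, Esr1, Nr2e3 and Esrrg on each array, in irradiated LGR5hi, non-irradiated LGR5hi, irradiated LGR5lo and non-irradiated LGR5lo cells from left to right. Points are arrays, lines group means and bars SD; Rarg lies above, and Vdr below, every non-irradiated array of the same sort after irradiation.

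Among the bile acid, sterol and foreign compound sensors, Nr1h4 alone passed, and only in LGR5lo cells, where it rose. Nr1h4, the bile acid receptor FXR, read 3.78, 3.52, 3.60 and 3.21 on irradiated LGR5lo arrays, against 2.68, 1.51, 2.42, 2.71 and 2.80 on non-irradiated ones. In LGR5hi cells it read 2.95, 2.47, 2.75 and 2.40 after irradiation, against 2.22, 2.03, 2.31 and 2.0 without. The groups did not overlap in either sort. The rise in LGR5lo cells was 1.10 ± 0.23 log2 (2.15-fold higher, adjusted p = 0.00775; 1.56 and 0.83 on slides 1 and 2), and the LGR5hi difference of 0.50 did not pass (adjusted p = 0.232). Without non-irradiated LGR5lo replicate 2, Nr1h4 also passed in LGR5hi cells (adjusted p = 0.0354).

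The remaining sensors gave smaller or more scattered differences. Nr1h2 and Nr1h3, the oxysterol receptors LXR beta and LXR alpha, differed by -0.23 and -0.31 log2 in LGR5hi cells and by 0.06 and 0.13 in LGR5lo cells. Nr1i2 and Nr1i3, the foreign compound sensors PXR and CAR, differed by -0.72 and -0.09 in LGR5hi cells and by 0.52 and 0.31 in LGR5lo cells. Nr0b2, the corepressor-like receptor SHP that FXR is known to induce, differed by -1.45 log2 in LGR5hi and -1.47 in LGR5lo cells (adjusted p = 0.0603 and 0.0668). Without non-irradiated LGR5lo replicate 2 it passed in both sorts (adjusted p = 0.00118 and 0.0353, differences -1.45 and -0.96), and with quantile normalization it passed in LGR5hi cells (adjusted p = 0.0245). With median centring it passed in LGR5hi cells too (adjusted p = 0.0212).

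The epithelial identity receptors Hnf4a and Nr5a2 fell in LGR5hi cells. Hnf4a, a fatty acid binding regulator of gut and liver epithelium, read 6.65, 6.74, 6.71 and 6.55 on irradiated LGR5hi arrays, against 7.20, 7.24, 7.33 and 7.11 on non-irradiated ones. Nr5a2, the receptor LRH-1, known for a role in crypt cell renewal, read 1.78, 2.37, 1.21 and 1.54 on irradiated LGR5hi arrays, against 3.11, 2.93, 2.87 and 2.78 on non-irradiated ones. The groups were apart for both genes, and Hnf4a varied little, with an SD of 0.08 on irradiated and 0.09 on non-irradiated LGR5hi arrays. Hnf4a fell by 0.56 ± 0.14 log2 (1.48-fold lower, adjusted p = 0.0145; -0.53 and -0.59 on slides 1 and 2) and Nr5a2 by 1.20 ± 0.26 (2.30-fold lower, adjusted p = 0.00514; -0.94 and -1.45).

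In LGR5lo cells neither gene passed in the main fit. Hnf4a read 7.03, 6.87, 7.0 and 6.81 on irradiated LGR5lo arrays, against 7.30, 6.65, 7.18, 7.25 and 7.02 on non-irradiated ones (-0.15 log2, adjusted p = 0.484). Nr5a2 read 2.04, 2.36, 1.58 and 2.11 on irradiated LGR5lo arrays, against 3.23, 2.52, 3.20, 2.50 and 2.30 on non-irradiated ones (-0.73 log2, adjusted p = 0.0937). Nr5a2 passed there as lower with quantile normalization (adjusted p = 0.0313) and with the mean of its probes (-1.04, adjusted p = 0.0204). It also passed with sex as a covariate (adjusted p = 0.0239) and slide as a block (adjusted p = 0.0397). A second kept Nr5a2 probe gave -0.954 in LGR5hi and -1.345 in LGR5lo cells. Hnf4g, the gamma form of HNF4 in the gut, differed by -0.41 log2 in LGR5hi and -0.02 in LGR5lo cells, and Nr5a1, the steroidogenic factor, by 0.09 and -0.15.

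Of the NR2 and NR6 orphan receptors, Nr2e3, Nr2f2 and Nr6a1 fell in LGR5hi cells. Nr2e3, known as a photoreceptor repressor, read 0.86, 1.62, 0.98 and 1.04 on irradiated LGR5hi arrays, against 2.55, 2.49, 2.01 and 2.17 on non-irradiated ones. Nr2f2, COUP-TFII, read -0.92, -1.17, -1.05 and -1.39 on irradiated LGR5hi arrays, against -0.39, -0.21, -0.35 and -0.33 on non-irradiated ones. Nr6a1, the germ cell nuclear factor, read -3.28, -3.29, -3.27 and -3.54 on irradiated LGR5hi arrays, against -2.37, -2.56, -2.93 and -2.37 on non-irradiated ones. No LGR5hi groups overlapped for these 3 genes. The falls were 1.18 ± 0.30 log2 for Nr2e3 (adjusted p = 0.014), 0.81 ± 0.16 for Nr2f2 (adjusted p = 0.00194) and 0.79 ± 0.21 for Nr6a1 (adjusted p = 0.0203). On slides 1 and 2 they were -1.28 and -1.08 for Nr2e3, -0.74 and -0.88 for Nr2f2, and -0.82 and -0.76 for Nr6a1. The Nr6a1 call was lost with quantile normalization (-0.80 log2, adjusted p = 0.635), with normexp background correction, where the difference was -0.19 (adjusted p = 0.755), and without non-irradiated LGR5hi replicate 1 or 4 or irradiated LGR5hi replicate 4 (adjusted p = 0.068, 0.0616 and 0.0638). The normexp fit also left out non-irradiated LGR5hi replicate 1, whose scanner file was damaged.

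In LGR5lo cells Nr2f2 fell by 0.52 ± 0.15 log2 (adjusted p = 0.0413; -0.47 and -0.55 on slides 1 and 2). It read -1.12, -1.10, -0.85 and -1.50 on irradiated LGR5lo arrays, against -0.42, -0.88, -0.60, -0.65 and -0.55 on non-irradiated ones, so that the groups overlapped by 1 array. With median centring the Nr2f2 difference was 0.0084 log2, and leaving out 1 array lost its call in 13 of 17 fits, with adjusted p of 0.0509 to 0.154, the highest without irradiated LGR5lo replicate 4. Nr2e3 read -1.02, 0.27, -0.48 and 0.13 on irradiated LGR5lo arrays, against 0.62, 0.37, 0.80, -0.23 and -0.20 on non-irradiated ones. Nr6a1 read -3.22, -3.29, -3.14 and -2.70 on irradiated LGR5lo arrays, against -2.93, -3.81, -3.02, -2.90 and -2.84 on non-irradiated ones. Neither of these passed (adjusted p = 0.245 and 0.982). The testicular receptors Nr2c1 and Nr2c2 and the COUP family members Nr2f1 and Nr2f6 did not pass in either sort, with differences from -0.30 to 0.51 log2 in LGR5hi and from -1.10 to 0.08 in LGR5lo cells. A second kept Nr2c2 probe gave -0.478 in LGR5hi and 0.807 in LGR5lo cells, against -0.275 and 0.006 for the one tested.

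**Figure D3:**
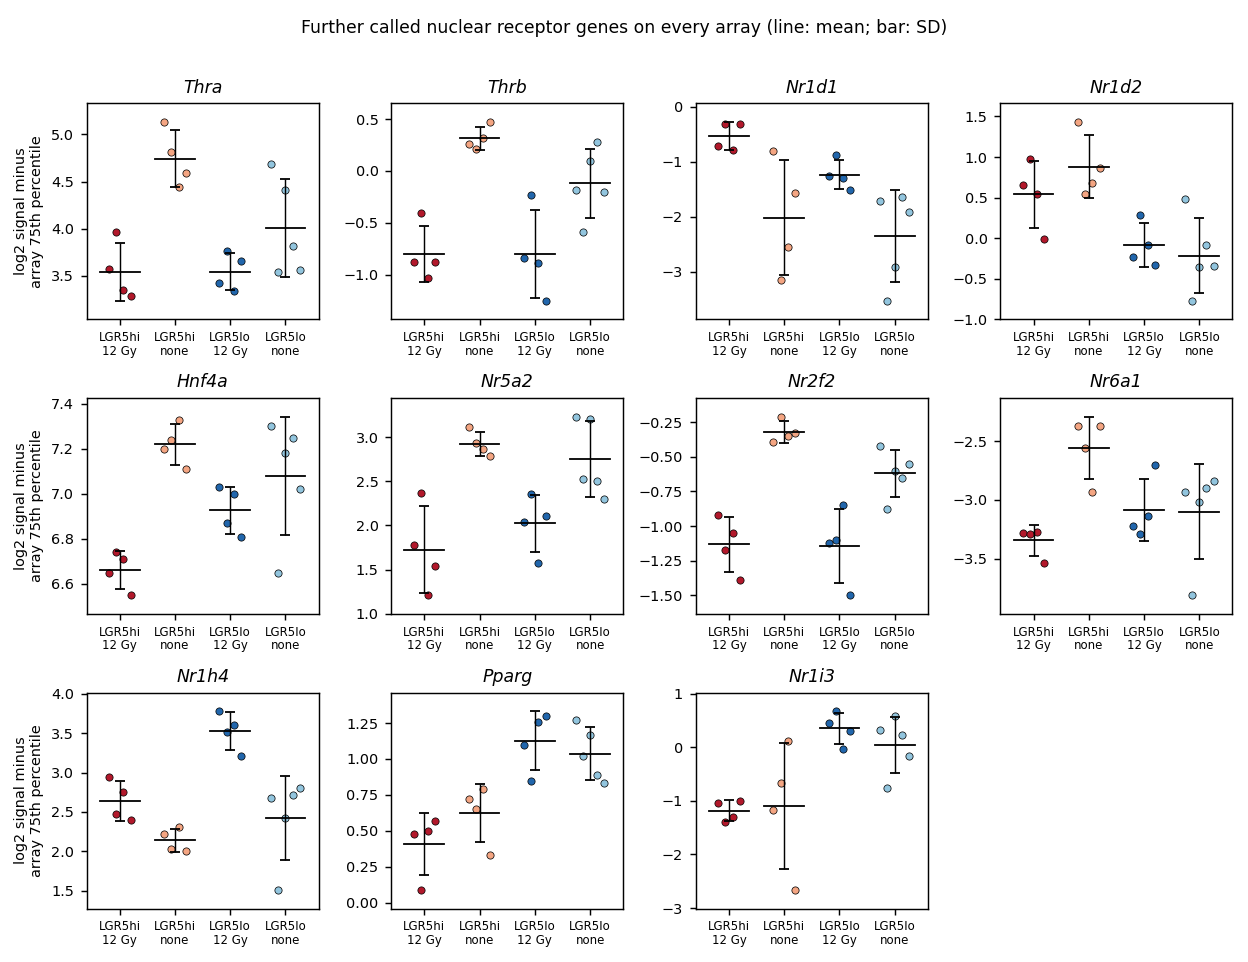
Normalised log2 signal of 11 further called receptor genes on each array, in irradiated LGR5hi, non-irradiated LGR5hi, irradiated LGR5lo and non-irradiated LGR5lo cells from left to right; points are arrays, lines means and bars SD. Thra, Thrb, Hnf4a, Nr5a2, Nr2f2 and Nr6a1 lie lower on all irradiated LGR5hi arrays than on all non-irradiated ones, and Nr1h4 lies highest on irradiated LGR5lo arrays.

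The scaling of the arrays bears on the calls in both sorts. The median gene differed between irradiated and non-irradiated LGR5lo cells by -0.13 log2, and quantile normalization moved this median by 0.20 and median centring by 0.53. With median centring 3 members were called in LGR5lo cells, 3 higher and 0 lower, and Esr1 and Vdr missed the threshold (adjusted p = 0.0751 and 0.375). With quantile normalization 7 members were called there, 2 higher and 5 lower, where 2210 of all genes were called, 1275 higher and 935 lower. In LGR5hi cells median centring left Rarg, Vdr, Ppara and Esr1 called. It lost the other 9 of the 13 calls, those of Esrrg, Thra, Thrb, Nr1d1, Hnf4a, Nr2e3, Nr2f2, Nr5a2 and Nr6a1 (adjusted p 0.109 to 0.73), with differences from -1.22 to 1.46 log2 of the same signs. Median centring also gained Nr0b2 as lower in LGR5hi cells (-1.47 log2, adjusted p = 0.0212). The split of all genes in LGR5hi cells was 1717 higher and 2026 lower, against 805 and 437 with median centring, and in LGR5lo cells 1243 and 838, against 916 and 74.

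Between the sorts, Esr1 and Nr2e3 were higher in LGR5hi cells with and without irradiation. After irradiation 7 of 40 members differed between LGR5hi and LGR5lo cells, 3 higher and 4 lower in LGR5hi, or 17.5%, where 6.31% of all genes were called, 2.21% higher and 4.10% lower. Without irradiation 6 differed, 5 higher and 1 lower in LGR5hi, or 15%, where 9.55% were called, 4.62% higher and 4.93% lower. This fit did not pair the sorts. With arrays of the same arm and number paired as a random block, the same members were called after irradiation. Without irradiation that block called further members, and it called more of all genes in both arms, as given in the closing section. The median member differed by -0.02 log2 after irradiation and 0.19 without, against 0.05 and -0.08 for all genes. All 7 and all 6 had the same sign on slides 1 and 2 alone, but the calls used these same arrays, so this is no independent check.

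**Figure D4:**
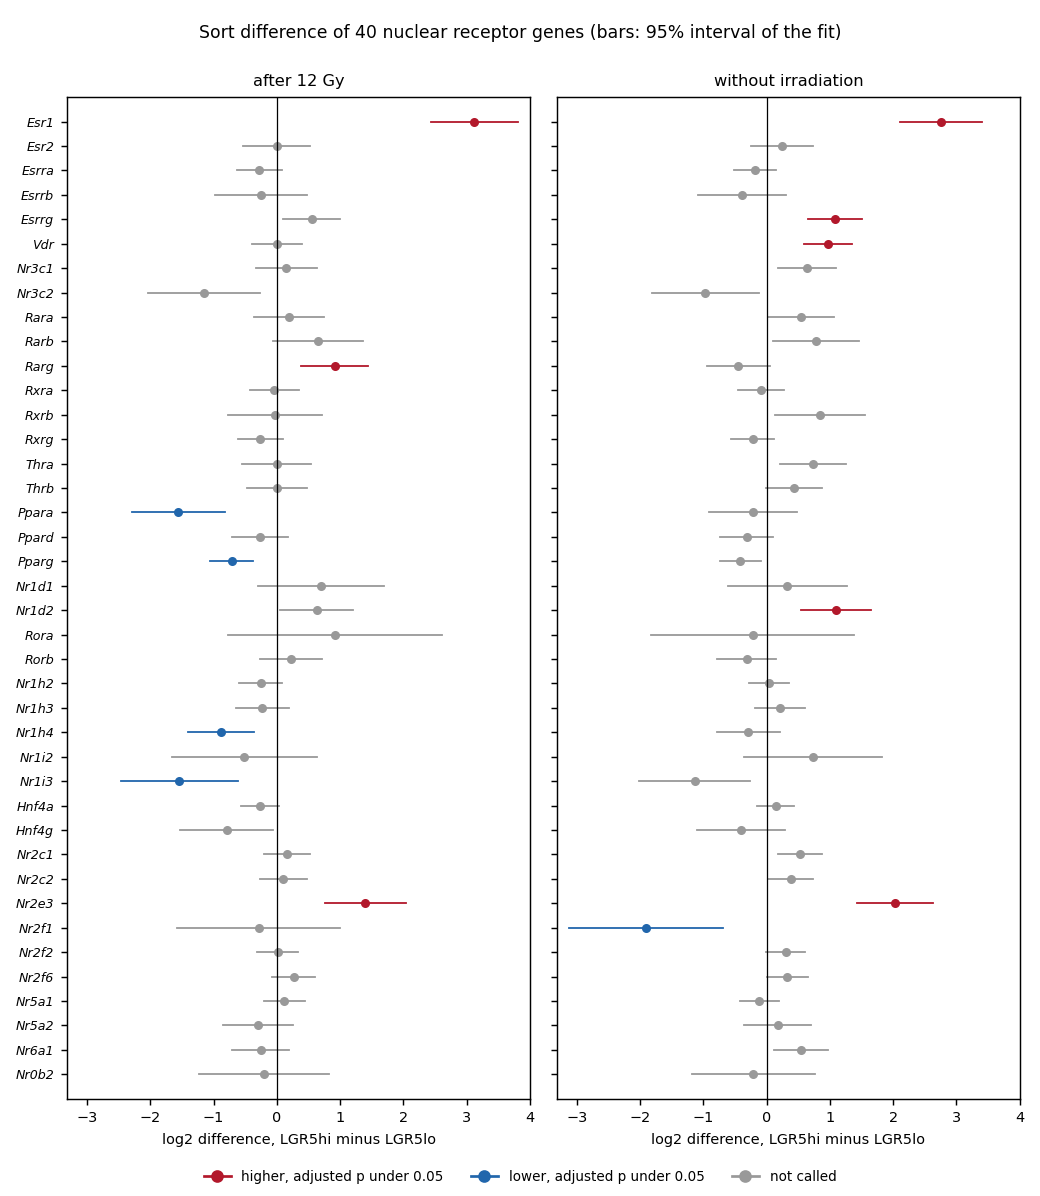
Log2 difference, LGR5hi minus LGR5lo, of the 40 measured nuclear receptor genes after 12 Gy (left) and without irradiation (right), with bars for the 95% interval of the limma fit. Red and blue mark genes called higher and lower in LGR5hi cells; Esr1 stands farthest to the right in both panels, at 3.12 and 2.76.

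Enteroendocrine, goblet and tuft cell markers differed strongly between the sorts, while few Paneth cell markers passed. All 15 enteroendocrine markers were lower in LGR5hi cells in both arms, with a mean level of -1.02 to -0.84 log2 on irradiated LGR5hi arrays against 3.22 to 3.88 on irradiated LGR5lo arrays. Without irradiation it was -0.85 to -0.06 on LGR5hi arrays against 3.00 to 3.54 on LGR5lo arrays. Of 8 goblet markers 7 were lower in LGR5hi cells in each arm, and of 10 tuft markers 7 were lower after irradiation and 10 without. Of 9 Paneth markers 0 passed after irradiation and 1 was lower without it, with medians of -0.87 and -0.64 log2. Of 16 LGR5 stem cell markers 13 were higher in LGR5hi cells in each arm. The part of these cell types in the receptor differences was not tested.

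Esr1 showed the largest difference between the sorts. With the values given above, it was higher in LGR5hi cells by 3.12 ± 0.32 log2 after irradiation (8.72-fold, adjusted p = 1.45e-05; 3.28 and 2.97 on slides 1 and 2). Without irradiation it was higher by 2.76 ± 0.31 log2 (6.76-fold, adjusted p = 2.82e-05; 2.24 and 3.00). Nr2e3 was higher by 1.40 ± 0.30 log2 after irradiation (2.64-fold, adjusted p = 0.00907; 1.62 and 1.18) and by 2.03 ± 0.28 without (4.08-fold, adjusted p = 0.000216; 2.02 and 1.80). For both genes the LGR5hi and LGR5lo arrays of an arm did not overlap. Over the alternative fits the Esr1 difference ran from 1.87 to 3.33 log2 after irradiation and from 2.14 to 3.23 without.

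Vdr and Esrrg were higher in LGR5hi than in LGR5lo cells without irradiation, and did not pass after it. Vdr was higher by 0.97 ± 0.18 log2 without irradiation (1.97-fold, adjusted p = 0.00218; 0.88 and 0.90 on slides 1 and 2), and differed by 0.00 ± 0.19 after it. Esrrg was higher by 1.08 ± 0.20 without irradiation (2.12-fold, adjusted p = 0.00249; 1.04 and 0.95) and differed by 0.55 after it (adjusted p = 0.162). With a fixed block for each arm and replicate number, which pairs the sorts within an arm, Esrrg also passed after irradiation (adjusted p = 0.0274 with this replicate block), but it did not with the same pairs as a random block.

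Nr1d2 was higher in LGR5hi cells without irradiation. It read 1.43, 0.55, 0.68 and 0.87 on non-irradiated LGR5hi arrays, against 0.48, -0.77, -0.35, -0.09 and -0.34 on non-irradiated LGR5lo arrays. After irradiation it read 0.65, 0.98, 0.54 and -0.01 in LGR5hi, against -0.23, 0.29, -0.08 and -0.33 in LGR5lo cells. The sorts were apart without irradiation and overlapped after it. The difference was 1.10 ± 0.26 log2 without irradiation (2.14-fold, adjusted p = 0.0136, and 0.0627 without non-irradiated LGR5hi replicate 1; 1.13 and 1.0 on slides 1 and 2) and 0.63 after it (adjusted p = 0.231, and 0.0248 with the replicate block). With the pairs as a random block Nr1d2 did not pass after irradiation.

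After irradiation the fatty acid receptors Ppara and Pparg were lower in LGR5hi than in LGR5lo cells. Pparg read 0.48, 0.09, 0.50 and 0.57 on irradiated LGR5hi arrays, against 1.10, 0.85, 1.26 and 1.30 on irradiated LGR5lo arrays. Without irradiation it read 0.72, 0.65, 0.79 and 0.33 in LGR5hi, against 1.27, 1.02, 1.17, 0.89 and 0.83 in LGR5lo cells. No LGR5hi array reached the lowest LGR5lo array of its arm. Pparg was lower by 0.72 log2 after irradiation, with an SE of 0.16 (1.64-fold, adjusted p = 0.013, and 0.0507 without irradiated LGR5hi replicate 2; -0.69 and -0.75 on slides 1 and 2), and differed by -0.41 without (adjusted p = 0.105, and 0.0342 with the replicate block). Ppara differed by -1.56 ± 0.35 log2 after irradiation (2.94-fold lower, adjusted p = 0.0118; -1.48 and -1.63) and by -0.21 ± 0.33 without. The 2 other Ppara probes disagreed here too, with -0.08 and -1.60 after irradiation.

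The sensors Nr1h4 and Nr1i3 were also lower in LGR5hi cells after irradiation, with little margin. Nr1i3 read -1.04, -1.40, -1.31 and -1.0 on irradiated LGR5hi arrays, against 0.46, 0.67, -0.03 and 0.31 on irradiated LGR5lo arrays. Without irradiation it read -1.17, -0.67, 0.12 and -2.66 in LGR5hi, against 0.32, -0.77, 0.58, 0.22 and -0.16 in LGR5lo cells. The irradiated sorts did not overlap, and the non-irradiated ones did. Nr1i3 differed by -1.54 ± 0.44 log2 after irradiation (2.91-fold lower, adjusted p = 0.0469, and 0.0654 with the replicate block; -1.78 and -1.30 on slides 1 and 2). Nr1h4 differed by -0.88 ± 0.24 (1.85-fold lower, adjusted p = 0.041; -0.94 and -0.83). Leaving out 1 array lost the call of Nr1i3 in 14 of 17 fits (adjusted p 0.052 to 0.126, highest without irradiated LGR5hi replicate 2). It lost that of Nr1h4 in 10 fits (0.0532 to 0.139, highest without irradiated LGR5lo replicate 1).

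Rarg was higher in LGR5hi than in LGR5lo cells after irradiation by 0.91 ± 0.25 log2 (1.88-fold, adjusted p = 0.0368; 0.89 and 0.93 on slides 1 and 2), although irradiated LGR5lo replicate 2, at 1.48, lay within the LGR5hi range. Without irradiation it differed by -0.44 log2 (adjusted p = 0.25). The call after irradiation was lost in 5 of 17 fits without 1 array, those without irradiated LGR5hi replicate 2 or 3 (adjusted p = 0.127 and 0.0801) or irradiated LGR5lo replicate 1, 3 or 4 (0.141, 0.0992 and 0.102).

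Nr2f1, COUP-TFI, was lower in LGR5hi cells without irradiation by 1.91 log2, with an SE of 0.57 (adjusted p = 0.0476, and 0.102 with the replicate block). It averaged -5.64 ± 1.06 on LGR5hi arrays (SD, n = 4) and -3.74 ± 1.26 on LGR5lo arrays (SD, n = 5), and the groups overlapped. It was dim, passing background on 11 of 16 arrays, and it differed by -3.28 on slide 1 and -0.42 on slide 2. Leaving out 1 array lost its call in 14 of 17 fits (adjusted p 0.0521 to 0.172, highest without non-irradiated LGR5hi replicate 1). Nr2c1 differed by 0.53 log2 without irradiation (adjusted p = 0.0535, and 0.0452 with the replicate block). A second kept Nr2c1 probe gave 0.089 there. With quantile normalization 8 members were called without irradiation, 5 higher and 3 lower, where 2368 of all genes were called, 1141 higher and 1227 lower. With median centring 3 were called, 3 higher and 0 lower, among 963 of all genes (456 higher and 507 lower). With normexp background correction, which also left out non-irradiated LGR5hi replicate 1, 4 were called, 4 higher and 0 lower, among 986 (403 higher and 583 lower).

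No member passed the test of whether irradiation acted differently in the 2 sorts. In this comparison 0 of 40 members were called by limma, against 0.0396% of all genes (0.0360% with a positive and 0.00360% with a negative difference), and 4 members had an unadjusted p under 0.05. Rarg rose by 1.36 log2 more in LGR5hi than in LGR5lo cells (95% interval 0.63 to 2.08, adjusted p = 0.290). Vdr differed by -0.97 between the 2 effects (-1.52 to -0.42, adjusted p = 0.354), Ppara by -1.35 (-2.36 to -0.33, adjusted p = 0.631) and Nr6a1 by -0.80 (-1.42 to -0.17, adjusted p = 0.637). The effects on Esr1 differed by 0.37 (adjusted p = 0.783). The greater number of calls in LGR5hi cells is therefore not shown to be a different response of any single receptor.

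Genes around the receptors were followed in lists of ligand enzymes, cofactors and known targets. The counts of every list are to be read against all genes, of which 6.18% were called higher and 7.30% lower in LGR5hi cells. In LGR5lo cells these shares of all genes were 4.48% and 3.02%. Some target lists hold members themselves: Rarb is listed for the retinoic acid receptors, Nr0b2 for FXR and LRH-1, Nr3c1 for the glucocorticoid receptor and Esrra for the estrogen-related receptors. Of 29 measured genes of ligand supply and breakdown, 4 rose and 5 fell in LGR5hi cells, and 2 rose and 1 fell in LGR5lo cells, with medians of 0.01 and -0.23 log2 against -0.02 and -0.13 for all genes. Cyp27a1, the sterol 27-hydroxylase, which also 25-hydroxylates vitamin D, rose by 2.46 and 2.30 log2 in LGR5hi and LGR5lo cells. Aldh1a3, a retinaldehyde dehydrogenase that makes retinoic acid, rose by 4.31 log2 in LGR5hi cells (adjusted p = 0.000378) and differed by 2.01 in LGR5lo cells (adjusted p = 0.0727). Dhrs3, which turns retinaldehyde back into retinol, fell by 2.07 log2 in LGR5hi cells, and Rdh11, a retinol dehydrogenase, fell by 0.96.

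Some retinoic acid receptor targets rose in LGR5hi cells. Of 12 measured targets 3 rose and 1 fell in LGR5hi cells and 0 passed in LGR5lo cells, with medians of 0.01 and -0.26 log2. Itgb7, a gut-homing integrin chain of lymphocytes, rose by 3.44 log2 and Stra6, a retinol transporter, by 2.11, while Dhrs3, listed here too, fell. In LGR5lo cells Itgb7 and Stra6 differed by 0.31 and 0.13. Of 13 leukocyte markers 1 rose in LGR5hi cells and 1 rose and 2 fell in LGR5lo cells, and the mean of these markers was -1.43 to -0.79 log2 on irradiated LGR5hi arrays against -1.62 to -1.28 on non-irradiated ones. The part of leukocytes in the Itgb7 value was not tested.

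Of 9 measured targets of the vitamin D receptor 1 rose in each sort and 0 fell, with medians of 0.20 and -0.22 log2. Over all genes 6.18% were called higher and 7.30% lower in LGR5hi cells, and 4.48% and 3.02% in LGR5lo cells. A list of 9 genes is too short to set its counts apart from these shares. The target that rose was Cldn2, a pore-forming claudin, by 0.97 log2 in LGR5hi and 1.32 in LGR5lo cells.

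The PPAR targets split in direction. Of 23 measured, 2 rose and 3 fell in LGR5hi cells, and 3 rose and 1 fell in LGR5lo cells, with medians of -0.25 and 0.16 log2. Plin2, a lipid droplet coat protein, fell by 1.05 and 0.61 log2 in LGR5hi and LGR5lo cells. Vnn1, a pantetheinase, rose by 1.82 and 1.32, and Angptl4, a lipoprotein lipase inhibitor, by 1.19 and 1.23. Creb3l3, a gut and liver transcription factor, rose by 2.22 in LGR5lo cells and differed by 1.29 in LGR5hi cells (adjusted p = 0.161).

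The sterol exporter genes Abcg5 and Abcg8, known LXR targets, fell in LGR5hi cells. Of 12 measured LXR targets 1 rose and 4 fell in LGR5hi cells and 1 fell in LGR5lo cells, where 7.30% and 3.02% of all genes were called lower, with medians of -0.53 and -0.50 log2. Scd2, a fatty acid desaturase, fell by 2.28 and 1.77 log2 in LGR5hi and LGR5lo cells. Abcg5 and Abcg8 fell by 1.83 and 2.78 in LGR5hi cells, and Mylip, the ligase that degrades the LDL receptor, by 1.33. None of 6 FXR targets and none of 13 PXR or CAR targets passed after irradiation in either sort, with medians of 0.00 and -0.41 in LGR5hi cells and 0.09 and 0.20 in LGR5lo cells.

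Of 18 measured targets of the glucocorticoid and mineralocorticoid receptors, 7 rose and 1 fell in LGR5hi cells. Over all genes 6.18% were called higher and 7.30% lower there. In LGR5lo cells 4 targets rose and 1 fell, where 4.48% of all genes were called higher and 3.02% lower. The medians of the targets were 0.46 and 0.45 log2. The metallothioneins Mt2 and Mt1, which also answer to metals, rose by 3.86 and 1.73 log2 in LGR5hi and by 4.09 and 2.11 in LGR5lo cells. Errfi1, a feedback inhibitor of EGF receptors, rose by 1.60 and 1.47. Tsc22d3, the glucocorticoid-induced leucine zipper protein, fell by 1.62 and 0.99.

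Of 16 clock genes of the REV-ERB and ROR circuit, 2 rose and 4 fell in LGR5hi cells and 1 rose and 1 fell in LGR5lo cells, with medians of -0.35 and -0.14 log2. Tef, a PAR-domain output factor, rose by 2.09 and 1.71 log2 in LGR5hi and LGR5lo cells, and Bhlhe40, a clock repressor, by 1.10 in LGR5hi cells. Cry2, a clock repressor, and Dbp, another PAR-domain factor, fell by 1.18 and 1.07 in LGR5hi cells.

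Of 18 HNF4 targets 3 fell in LGR5hi cells and 2 in LGR5lo cells, with none higher and medians of -0.52 and -0.08 log2. Cldn15, a pore-forming claudin, fell by 1.77 and 1.07 log2 in LGR5hi and LGR5lo cells, and Ttr, transthyretin, by 2.43 in LGR5hi cells. Enterocyte markers, which share 8 measured genes with this list, were lower for 1 of 15 in LGR5hi cells. Of 14 estrogen receptor and estrogen-related receptor targets, 1 rose and 2 fell in LGR5hi cells and 3 rose and 1 fell in LGR5lo cells, with medians of 0.11 and 0.17. Greb1, an estrogen receptor target and cofactor, fell by 1.07 and 1.05, and Myc, the growth factor-driven transcription factor, rose by 0.66 and 0.80. Cycs, cytochrome c, rose by 0.55 in LGR5lo cells.

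Of 8 LRH-1 targets 1 rose in LGR5hi and 2 in LGR5lo cells, with medians of 0.05 and -0.01 log2. Scarb1, the HDL receptor, rose by 1.77 and 0.69 log2 in LGR5hi and LGR5lo cells, and Ccnd1, cyclin D1, by 2.09 in LGR5lo cells. Among 22 coactivators and corepressors 1 rose and 4 fell in LGR5hi cells and 1 rose in LGR5lo cells, with medians of -0.32 and -0.04. The corepressor Ncor1 and the corepressor subunit Tbl1xr1 fell by 0.79 and 0.99 in LGR5hi cells. Ppargc1a, the coactivator PGC-1 alpha, fell by 1.05 in LGR5hi cells and differed by -0.02 in LGR5lo cells. Among receptors outside the 41, Nr4a1, an immediate early orphan receptor, rose by 2.19 log2 in LGR5hi cells and differed by 0.56 in LGR5lo cells (adjusted p = 0.454).

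**Figure D5:**
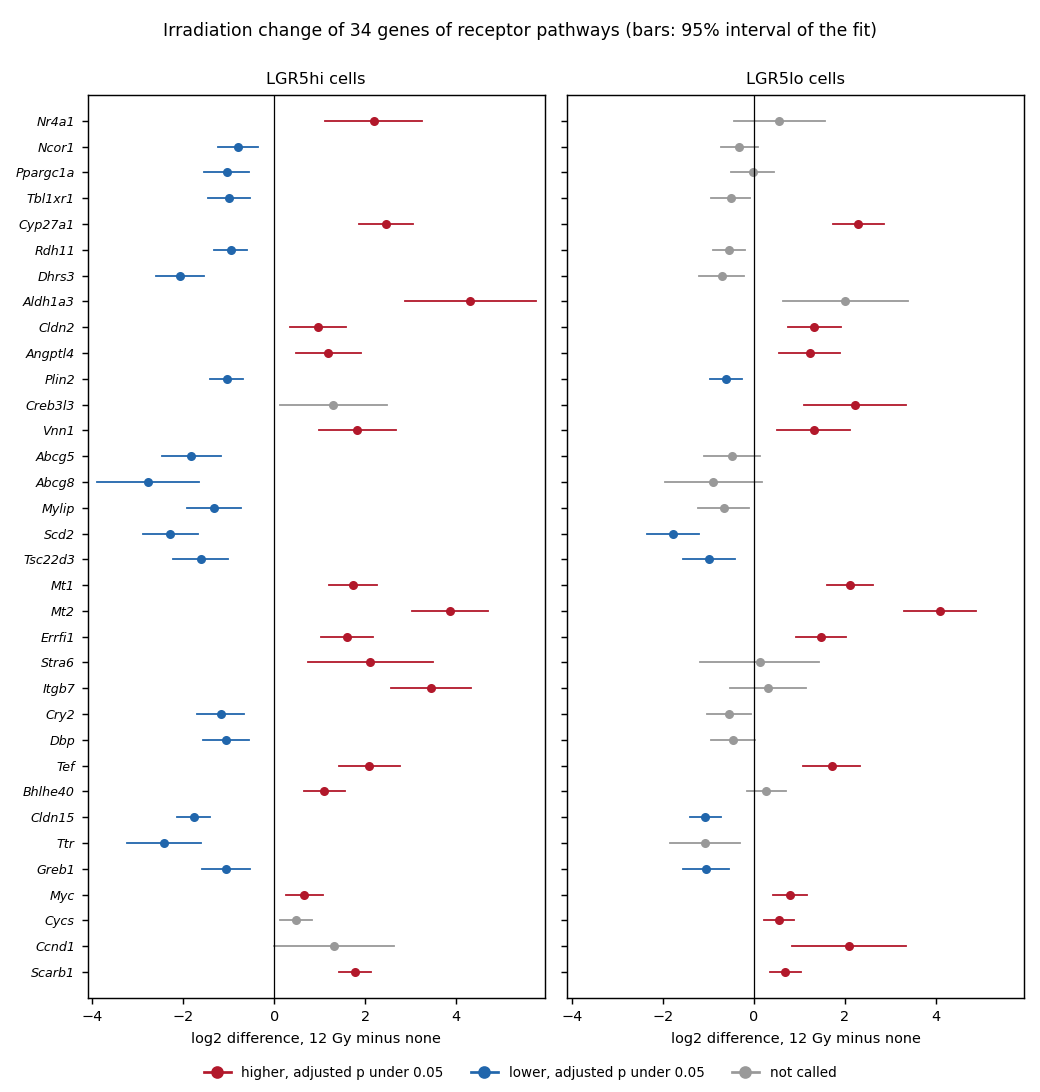
Log2 difference, 12 Gy minus none, of 34 genes of the receptor pathway lists in LGR5hi cells (left) and LGR5lo cells (right), with bars for the 95% interval of the limma fit. Red and blue mark genes called higher and lower; the genes were chosen for small p-values within each list, and Aldh1a3 stands farthest to the right in LGR5hi cells, at 4.31, and Mt2 in LGR5lo cells, at 4.09.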

How the data were processed

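RNA of 17 sorted samples was hybridised to 1-colour Agilent mouse arrays and scanned; p-values rest on 4 or 5 arrays a group. The deposited scanner files hold intensity values, the background-subtracted processed signal, made with Agilent Feature Extraction 10.7.3.1, per the submitters' processing notes. The deposited series table holds log2 values that the authors centred per probe; the labels used here do not say how, and its scale was read by setting it against the scanner files. Each array's log2 processed signal was set relative to its 75th percentile over the 55681 probes that are not controls, without outlier spots, and replicate spots were averaged. A probe was kept if well above background on 4 arrays (41444 probes), and the brightest stood for a gene (27771 genes).

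Because the copy of its scanner file used here was damaged, replicate 1 of the non-irradiated LGR5hi group was rebuilt from the series table and the per-probe baseline of the other 16; the same procedure returned 99.6% to 99.8% of probes of whole arrays within 0.02 log2. Groups came from the labels. One limma 3.58.1 fit (R 4.3.3) over all arrays gave the differences, and p-values of the 27771 genes were adjusted by Benjamini-Hochberg and called under 0.05. The same fit was run on simulated data with independent noise. Those data held no outlying array and no pairing of the sorts, so that run does not cover these features. Means and tables were made with Python 3.11.15, numpy 2.4.6 and pandas 2.3.3, and plots with matplotlib 3.10.9. Within an arm, an LGR5hi array and the LGR5lo array of the same number deviated together from their group means (correlations of 0.12 to 0.46 in 8 pairs, all over 0.1), so the numbers pair the sorts; across arms the correlations ranged from -0.10 to 0.34 and do not pair.

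The members and lists were chosen with earlier results of these data known. Values on every array are given for Esr1, Vdr and members called with groups that do not overlap; other members get means or differences. From each other list up to 4 called genes with the smallest irradiation p are named, and Lgr5, Cdkn1a and Mdm2 as checks. Some genes that this rule names are not reported here. Alternatives covered normalization, background correction, the probe filter, probe averaging, sex, slide, replicate number, the groups fitted and each array left out.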

Additional observations from a re-analysis of the deposited data

Results flagged for a closer look

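Of 160 sets of arrays (40 genes in 4 groups), 11 held 1 array far from the rest of its group; chance alone gives about 1 set in 20. Of these, 4 concern replicate 2 of non-irradiated LGR5lo cells, the array with the highest share of spots above background. On it Nr3c2 read -0.07 log2, while the rest of its group read -2.48 to -1.93. Rora read -0.24 there, with the others at -5.15 to -4.20. Nr1h4 read 1.51 there, with the others at 2.42 to 2.80, and Nr6a1 read -3.81, with the others at -3.02 to -2.84.

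Irradiated replicate 4 gave the highest Rarb value of its group in both sorts. It read -2.05 in LGR5hi cells, with the others at -3.20 to -3.02, and -2.30 in LGR5lo cells, with the others at -3.94 to -3.84. Irradiated LGR5hi replicate 4 also read -3.54 for Nr6a1, with the others at -3.29 to -3.27. Irradiated LGR5lo replicate 3 read 2.44 for Esr2, with the others at 3.05 to 3.13, and irradiated LGR5lo replicate 2 read -3.12 for Nr3c2, with the others at -2.64 to -2.60. Non-irradiated LGR5hi replicate 4 read 4.92 for Esrra, with the others at 5.06 to 5.08. Non-irradiated LGR5hi replicate 2 read 2.69 for Rxrg, with the others at 2.41 to 2.44.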

How the results depend on the processing

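Called members gave 961 values under the alternatives, of which 788 kept their call, 172 lost it with the same sign and 1 turned: with median centring Nr2f2 differed by 0.0084 log2 in LGR5lo cells. In the order irradiation in LGR5hi, irradiation in LGR5lo, LGR5hi against LGR5lo after irradiation and without it, the members called were 13, 5, 7 and 6. Median centring gave 5, 3, 2 and 3, slide 1 alone 1, 0, 1 and 0, and slide 2 alone 7, 2, 1 and 1; a slide alone has 2 arrays a group. For irradiation in LGR5lo cells normexp, the mean of a gene's probes and sex as a covariate each gave 8, and the compared groups alone gave 3. Without a filter on dim probes 4 members differed between the sorts after irradiation. Leaving out 1 array gave 11 to 17, 4 to 8, 3 to 8 and 4 to 10. The extremes include 8 for irradiation in LGR5lo without non-irradiated LGR5lo replicate 2, and, after irradiation between the sorts, 3 without irradiated LGR5hi replicate 2 and 4 without irradiated LGR5hi replicate 3 or irradiated LGR5lo replicate 1 or 3. Without non-irradiated LGR5lo replicate 1, 10 differed between the sorts without irradiation.

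All genes called were 3743, 2081, 1753 and 2651, in the same order. Median centring gave 1242, 990, 672 and 963, slide 1 alone 266, 42, 319 and 105, and slide 2 alone 1573, 459, 118 and 246. Normexp, fitted without non-irradiated LGR5hi replicate 1, gave 2309 for irradiation in LGR5hi and 986 between the sorts without irradiation. Leaving out that array alone gave 2842 for irradiation in LGR5hi. The compared groups alone gave 788, 3114 and 1157 for the comparisons after the first. Leaving out 1 array gave 2842 to 5191, 1181 to 2539, 1062 to 2869 and 1446 to 4234. For the difference of the irradiation effects 11 genes were called, 10 higher and 1 lower, against 0 with median centring or on either slide alone, 2 with normexp (1 and 1) or slide as a block, 13 with quantile normalization (10 and 3), and 0 to 26 without 1 array. Between the sorts after irradiation the split was 615 higher and 1138 lower, against 96 and 576 with median centring.

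The replicate block, fixed for each arm and number in the sort comparisons, changed these sort calls of members: Nr1i3 and Nr2f1 were lost, and Esrrg, Nr1d2, Pparg and Nr2c1 gained. It changed no other sort call of a member. For irradiation the block was the number across arms, which does not pair, and it gained Rara in LGR5hi and Esrrg in LGR5lo cells (adjusted p = 0.0257 and 0.0402) and lost Nr2f2 in LGR5lo cells (0.0525). It gave 19 genes for the difference of effects. Arm and number as a random block gave 55 there, 2895 and 4192 genes between the sorts after and without irradiation, and 11 members without irradiation, with Thra, Nr3c1, Nr1i3, Pparg and Nr2c1 gained there (adjusted p = 0.0338, 0.0371, 0.0497, 0.032 and 0.018). It lost no sort call of a member and gained none after irradiation, and it kept Nr1i3 after irradiation and Nr2f1 without (adjusted p = 0.0172 and 0.0227). It gained Esrrg and Thrb for irradiation in LGR5lo cells (0.0493 and 0.0491). The causes were not tested. Signal over background limits the dim members Nr2f1, Rora and Nr0b2, which passed background on 11, 13 and 14 of 16 arrays. Esr1 passed on all 16, but it was dim on irradiated LGR5lo arrays, with a mean of -4.12.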
